A study of Mus musculus with 16 samples.

Results

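The genes described here copy DNA and carry a cell from G1 into S phase. They are 59 genes named by symbol: the helicase loaders and the MCM helicase, the factors that fire origins, the replicative polymerases, the sliding clamp and its loader, single-strand binding and lagging strand factors, nucleotide enzymes, chromatin factors, fork protectors, and the E2F and cyclin E group. All 59 of 59 were found among the 9443 genes of the deposited count table, and 55 of them held enough counts to be tested, among 6824 tested genes in all. The study sequenced polyadenylated RNA from B cells of germinal centres, sorted from lymph nodes of mice with the genotype given as WT, in 16 libraries of bulk cells. The 4 groups were light zone (LZ) cells after an isotype control antibody, LZ cells after anti-CD40, dark zone (DZ) cells after isotype and DZ cells after anti-CD40, all taken 4 h after the antibody was given in vivo, with 4 libraries a group. The labels give neither the age of the mice, the antibody dose nor the sorting gates, and they do not say whether the libraries of a group came from separate mice, so that p-values measure the spread between these libraries.

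CD40 is the B cell receptor for helper T cell signals, and an agonist antibody stands in for the T cell. Germinal centre B cells receive those signals in the LZ and divide mainly in the DZ. To copy its genome once per cycle, a cell first licenses origins in G1: the origin recognition complex with Cdc6 and Cdt1 loads the MCM helicase, while geminin blocks reloading. At the start of S phase the Dbf4-dependent kinase Cdc7 and Cdk2 with cyclin E activate the helicase through Cdc45 and the GINS complex. The clamp loader, replication factor C (RFC), then places the ring-shaped clamp Pcna on DNA, where it tethers the polymerases. E2F transcription factors, released from the retinoblastoma protein family by cyclin-dependent kinases, switch on many of these genes.

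Promoters of the members are shown first, because many of these genes are known E2F targets. Of the 59 genes 49 had a promoter in the RefSeq table (250 bases before to 50 bases after the annotated start, build GRCm38.p6). E2F sites were searched on both strands as TTTCCCGC, TTTCGCGC, TTTGCCGC or TTTGGCGC, E-boxes as CACGTG and CCAAT boxes as CCAAT. An E2F match stood in 17 of 49 members (34.7%), against 4.59% of 7651 genes of the count table with a promoter of the same length and 2.26% of all 32851 promoters in the RefSeq table. CCAAT was found in 63.3% of members and 39.9% of genes in the count table, and the E-box in 12.2% and 11.0%. The 17 were Orc1, Cdc6, Cdt1, Mcm3, Mcm5, Mcm6, Mcm7, Gins3, Pola1, Pold1, Pole2, Rfc3, Clspn, E2f2, E2f3, Cdk2 and Cdc25a. The letters match a site by spelling alone, and binding was not measured.

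The promoters of 6 members whose RNA changed with anti-CD40 are printed to set genes with an E2F match (3) beside genes without one (3); they were chosen after values were seen and come from RefSeq on GRCm38.p6, 5′ to 3′ on the strand of the gene. Mcm5 lies at chr8:75109259-75109558 on the plus strand, Rfc3 at chr5:151651159-151651458 on the minus strand, and E2f2 at chr4:136172024-136172323 on the plus strand. Rfc1 lies at chr5:65335590-65335889, Dctpp1 at chr7:127260618-127260917 and Pold2 at chr11:5878207-5878506, all on the minus strand. Capitals mark E2F matches in Mcm5, Rfc3 and E2f2 and the E-box in Rfc1; the 2 matches of Mcm5 overlap, and Dctpp1 and Pold2 hold neither motif.
Mcm5: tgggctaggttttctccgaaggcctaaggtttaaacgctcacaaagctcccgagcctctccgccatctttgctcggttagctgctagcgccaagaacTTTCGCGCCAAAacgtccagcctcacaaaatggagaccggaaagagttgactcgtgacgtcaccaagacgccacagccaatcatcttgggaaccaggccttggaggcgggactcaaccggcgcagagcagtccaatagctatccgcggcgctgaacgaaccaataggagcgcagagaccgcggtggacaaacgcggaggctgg
Rfc3: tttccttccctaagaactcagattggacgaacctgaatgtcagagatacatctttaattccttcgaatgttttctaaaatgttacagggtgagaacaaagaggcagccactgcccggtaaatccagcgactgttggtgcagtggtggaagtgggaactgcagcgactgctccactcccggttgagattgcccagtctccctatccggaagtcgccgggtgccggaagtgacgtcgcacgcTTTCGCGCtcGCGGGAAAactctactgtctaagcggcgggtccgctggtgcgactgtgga
E2f2: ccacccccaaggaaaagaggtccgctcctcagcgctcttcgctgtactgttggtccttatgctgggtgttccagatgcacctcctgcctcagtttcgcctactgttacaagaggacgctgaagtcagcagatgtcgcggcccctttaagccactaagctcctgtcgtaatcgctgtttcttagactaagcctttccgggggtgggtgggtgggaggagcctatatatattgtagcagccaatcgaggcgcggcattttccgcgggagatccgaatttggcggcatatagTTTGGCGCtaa
Rfc1: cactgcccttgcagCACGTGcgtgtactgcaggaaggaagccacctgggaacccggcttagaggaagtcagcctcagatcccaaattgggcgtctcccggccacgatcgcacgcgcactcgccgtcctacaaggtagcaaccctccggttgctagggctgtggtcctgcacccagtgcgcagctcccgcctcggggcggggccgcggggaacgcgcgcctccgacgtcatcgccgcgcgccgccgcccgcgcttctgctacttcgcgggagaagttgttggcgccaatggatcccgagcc
Dctpp1: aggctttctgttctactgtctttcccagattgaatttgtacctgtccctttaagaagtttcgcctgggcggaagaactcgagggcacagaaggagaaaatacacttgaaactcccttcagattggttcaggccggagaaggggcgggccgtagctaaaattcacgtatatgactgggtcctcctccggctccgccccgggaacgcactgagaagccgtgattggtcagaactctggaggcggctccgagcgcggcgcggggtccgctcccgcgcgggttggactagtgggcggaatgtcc
Pold2: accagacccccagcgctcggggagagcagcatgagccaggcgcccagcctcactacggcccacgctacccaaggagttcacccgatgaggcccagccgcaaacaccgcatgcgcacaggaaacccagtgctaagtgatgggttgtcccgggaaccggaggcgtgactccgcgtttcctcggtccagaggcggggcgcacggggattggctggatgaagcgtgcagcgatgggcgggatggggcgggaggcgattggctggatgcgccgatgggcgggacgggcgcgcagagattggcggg

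The positions of the matches along the 49 promoters are drawn in the map of motifs, where the E2F matches of Rfc3 flank the start and those of Mcm5 lie 142 to 153 bases before it. Set beside the response, the median log2 fold change with anti-CD40 was -0.32 for the 16 tested members with an E2F match and -0.38 for the 30 without in the LZ, and -0.31 and -0.34 in the DZ. Among the 13 called members with a promoter, 3 held an E2F match (23.1%).

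**Figure D1:**
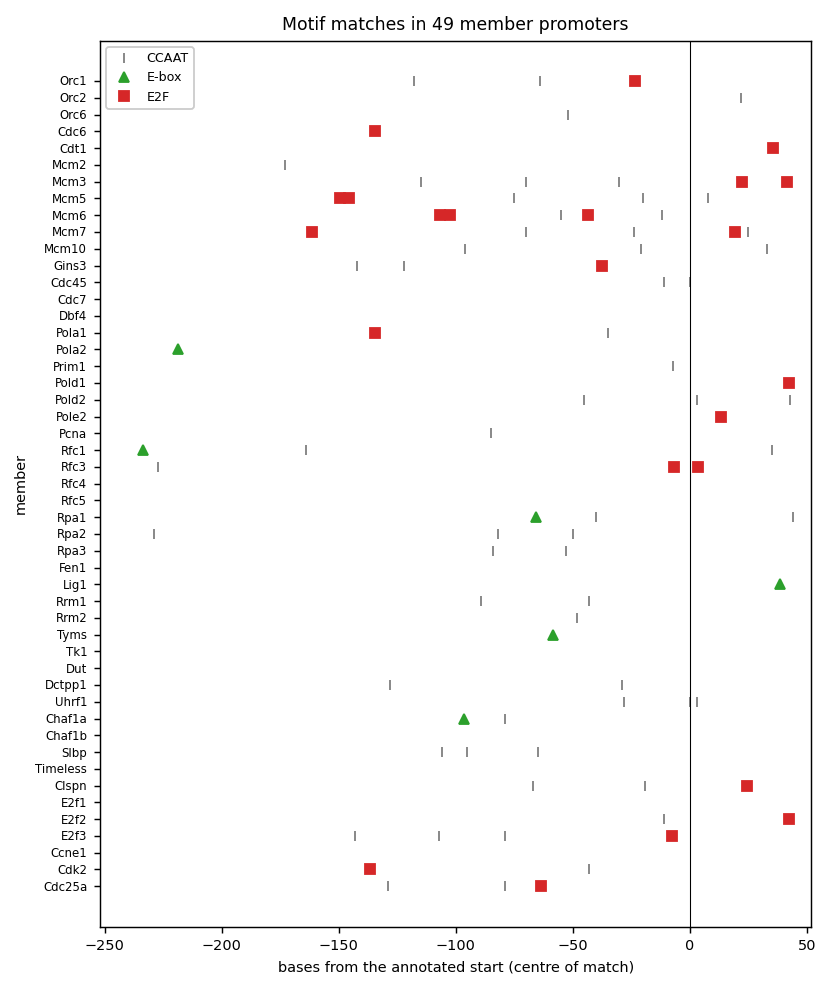
Motif matches in 49 member promoters. The x axis gives bases from the annotated start, each line on the y axis is a gene, and the symbols mark E2F, E-box and CCAAT matches on either strand; 17 of the 49 genes carry an E2F match and 6 an E-box.

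Libraries held between 493131 and 1473415 unique molecular identifiers (UMI), and 1 UMI stood for 0.651 to 2.05 CPM, the count scaled to a common library size with TMM factors. Counts of replicates differed by more than sampling noise in all 24 pairs (chi-square divided by its degrees of freedom, 1.65 to 10.1). The 4 libraries numbered 4, 1 per group, stood apart: with group in the model, 2451 of 6824 genes (35.9%) and 27 of 55 members (49.1%; 11 higher, 16 lower) differed between them and the other 12. For this reason counts are also given without these 4 libraries. Anti-CD40 DZ library 3 leaned the same way in its deviations from the group mean over all tested genes. These correlated at 0.26, 0.26 and 0.43 with library 4 of isotype LZ, anti-CD40 LZ and isotype DZ. With the other libraries of those groups the correlations were -0.34 to 0.18. This library stays in when those numbered 4 are left out, and its part in the DZ result was not tested. Under isotype, 5 of 5 LZ markers (Cd83, Cd86, Nfkbia, Fcer2a, Bcl2a1b) were higher in LZ in edgeR, at a summed level of 1670 to 2190 CPM in LZ and 593 to 777 in DZ. The DZ markers (Cxcr4, Foxo1, Polh, Mybl1, Gcsam) did not separate the zones under isotype: 1 of 5 was lower in LZ, and their sums overlapped, at 388 to 642 CPM in LZ and 480 to 772 in DZ. After anti-CD40 the LZ markers of DZ libraries summed to 2390 to 3670 CPM, above every isotype LZ library, and those of LZ libraries to 6240 to 7300. In edgeR 4 of 5 LZ markers rose with anti-CD40 in each zone, so that after treatment their sum mixes zone and response. All 5 B cell markers and 5 of 6 germinal centre markers were listed, whereas 0 of 6 stromal and 0 of 5 red cell markers, 1 of 8 T cell markers (Lck) and 2 of 7 myeloid markers (Lyz2, Cd68) were.

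Replication and G1/S genes together took a smaller share of the RNA after anti-CD40 in both zones. Their UMI made up 0.605 to 0.691% of a library in isotype LZ and 0.469 to 0.549% in anti-CD40 LZ, and 0.656 to 0.727% in isotype DZ and 0.533 to 0.603% in anti-CD40 DZ. Within each zone the treated and control libraries did not overlap. The summed level of the 59 genes was 6520 ± 182 CPM in isotype LZ and 5490 ± 251 in anti-CD40 LZ, and 6950 ± 174 in isotype DZ and 5640 ± 305 in anti-CD40 DZ (SD, n = 4). The sums are a description without a test. Shares and CPM are relative to the other RNA of a library. In bulk RNA, fewer cells in S phase, less RNA of these genes per cell and more of other RNA cannot be told apart.

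**Figure D2:**
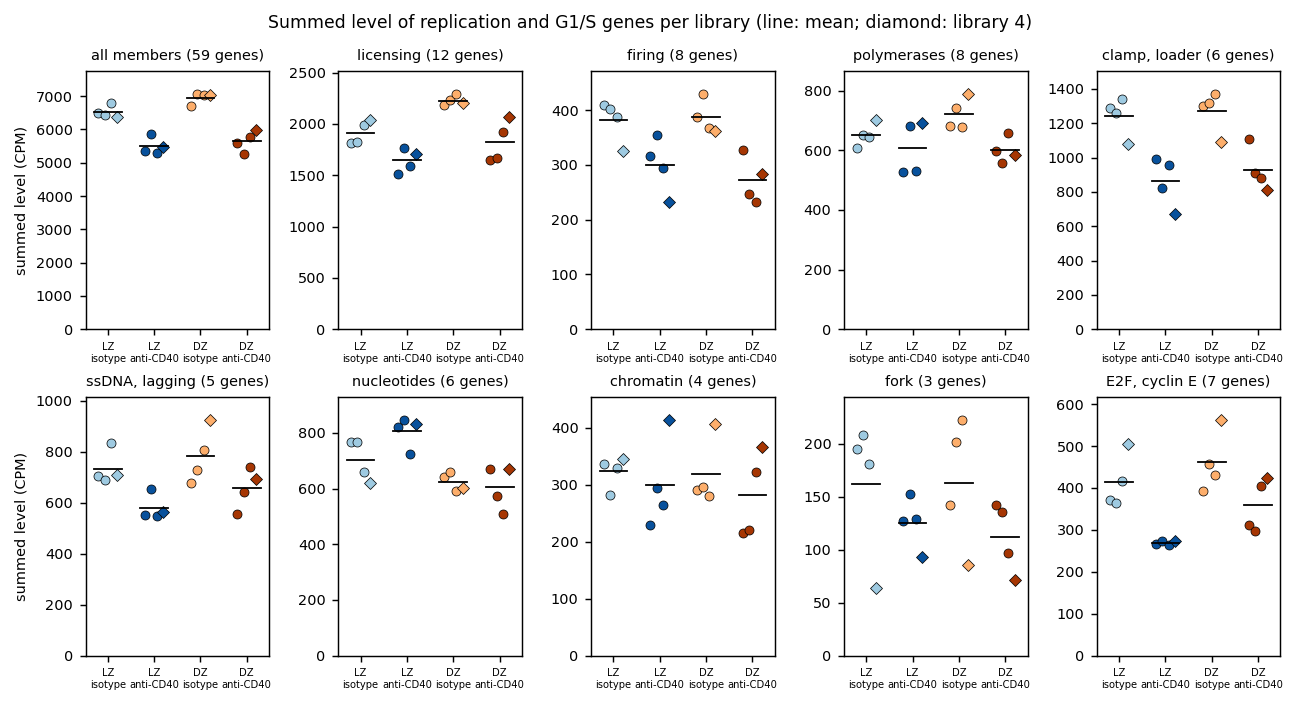
Summed level (CPM, y axis from 0) of all members and of each role in every library of the 4 groups (x axis), with a line at the group mean and diamonds for libraries numbered 4. All 4 anti-CD40 libraries lie below all 4 isotype libraries in each zone for the 59 genes together, while the nucleotide supply sums of the LZ overlap, with a higher mean after anti-CD40 (806 ± 54.8 against 704 ± 75.3 CPM, SD, n = 4) to which Dctpp1 adds 474 against 192 CPM.

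In the LZ, 9 of the 55 tested members (16.4%) were lower after anti-CD40 and 2 (3.64%) higher, against 8.24% lower and 10.8% higher among all tested genes, at an adjusted p under 0.05 in edgeR's quasi-likelihood test with Benjamini-Hochberg adjustment over 6824 genes. The 9 were Rfc1, Rfc2, Rfc3, Rfc5, Rpa1, Cdc45, Tk1, E2f1 and E2f2, and the 2 that rose were Dctpp1 and Pold2. Log2 fold changes were below 0 for 44 of 55 members, with a median of -0.30 and a range of -1.47 to 1.30; over all genes the median was 0.01 and 49.6% were below 0. At an unadjusted p under 0.05 there were 20 of 55 members, beside 31.1% of all genes. In 10 members every anti-CD40 library lay below every isotype library and in 2 above, against 9.03% and 11.4% of all genes. Without the libraries numbered 4 the count was again 11, of which 9 were shared: Rfc3 and Rfc5 no longer passed (adjusted p = 0.102 and 0.0935), and Rrm1 and Timeless did. DESeq2 called the same 11 and Rrm1. Upper quartile factors gave 14 calls, and the replicate number as a block gave 18. Beside these changes the summed germinal centre markers were 1160 ± 301 CPM in isotype and 552 ± 118 in anti-CD40 LZ, the DZ markers 464 ± 120 and 166 ± 25.1, the LZ markers 1990 ± 242 and 6820 ± 437, and Lck 117 ± 20.6 and 85.0 ± 10.3 (SD, n = 4). Of the 5 germinal centre markers, 4 had a log2 fold change below 0 and 1 above (0.34). The part of these markers in the result was not tested.

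In the DZ, 1 of 55 members passed, Gins2, which fell (1.82%; 0.147% of all genes fell and 2.24% rose). The direction was nevertheless shared: 50 of 55 log2 fold changes were below 0, with a median of -0.34 and a range of -0.76 to 0.48, against a median of -0.01 and 51.4% below 0 over all genes. At an unadjusted p under 0.05 there were 13 of 55 members, beside 10.9% of all genes. In 7 members (Orc1, Mcm5, Gins2, Rfc2, Rpa1, Rrm1 and Cdc25a) every anti-CD40 library lay below every isotype library, against 2.4% of all genes. Without the libraries numbered 4, the count was again 1, with Mcm4 in place of Gins2, and DESeq2 called Gins2 alone. With the replicate number as a block it was 6 (Gins2, Dctpp1, E2f1, Mcm4, Mcm5 and Rpa1). With no filter on low counts, or with only the groups compared in the fit, it was 0. Beside these values the summed germinal centre markers were 1500 ± 335 CPM in isotype and 958 ± 236 in anti-CD40 DZ, the LZ markers 707 ± 81.5 and 3010 ± 573, the DZ markers 601 ± 131 and 543 ± 144, and Lck 71.9 ± 16.1 and 77.2 ± 6.72 (SD, n = 4). Of the 5 germinal centre markers, 4 had a log2 fold change below 0 and 1 above (0.45). The part of these markers in the result was not tested.

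Averaged over both zones, 13 members fell (23.6%, against 8.35% of all genes) and Dctpp1 rose (1.82%, against 11.2%). The average rests on the same 16 libraries as the zones and is no independent evidence. Mcm5, Gins2, Chaf1b and Timeless passed here and not in the LZ. Without the libraries numbered 4 it was 17 members, 16 lower and 1 higher, of which 12 were shared; Chaf1b (adjusted p = 0.068) and Rfc3 (0.0553) no longer passed.

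**Figure D3:**
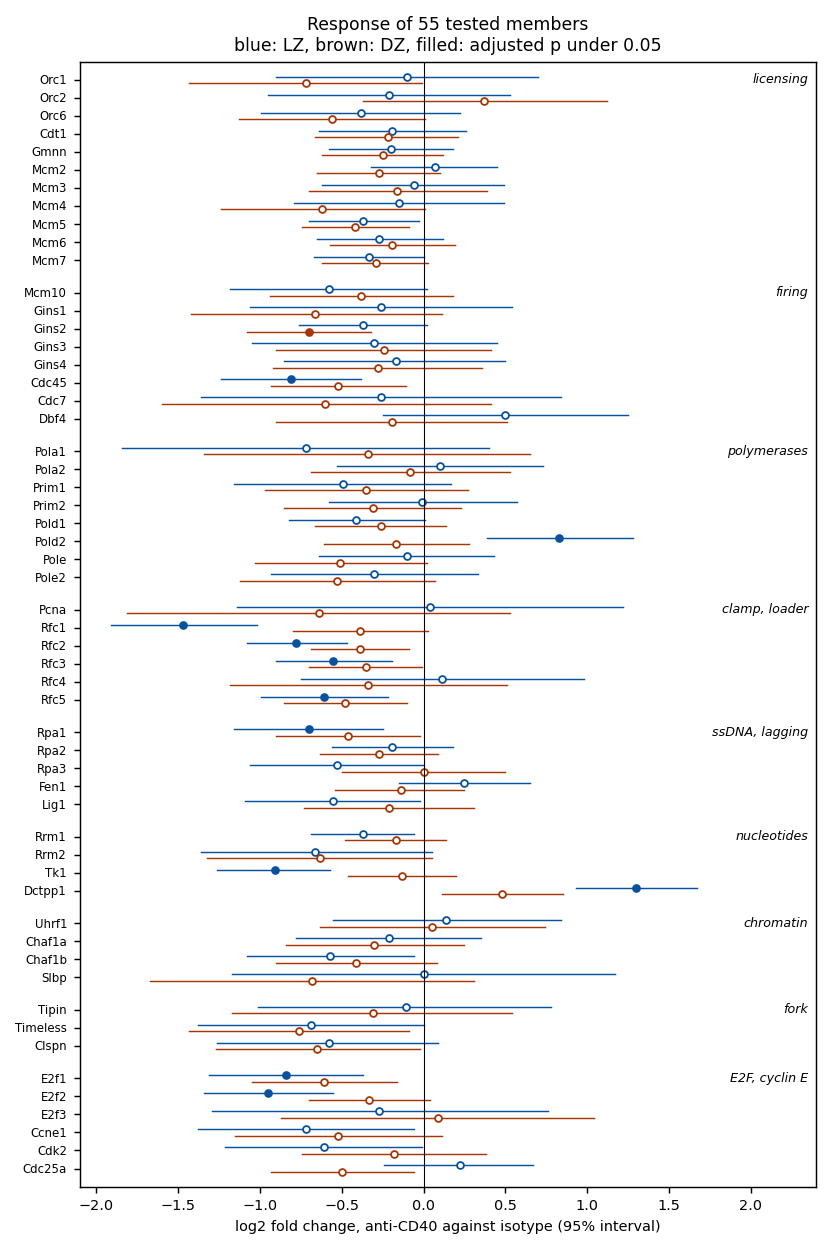
Log2 fold change of anti-CD40 against isotype (x axis) with its 95% interval for the 55 tested members (y axis, by role), blue for LZ and brown for DZ, filled where the adjusted p is under 0.05. Most points lie left of 0 in both zones, Rfc1 reaches -1.47 in the LZ, and Dctpp1 and Pold2 lie to the right in the LZ.

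Licensing genes gave no call in the LZ or in the DZ: 0 of 11 tested in each in edgeR and DESeq2, with 2 at an unadjusted p under 0.05 in each zone and medians of -0.20 and -0.27. Their summed level was nonetheless 1920 ± 117 CPM in isotype and 1640 ± 117 in anti-CD40 LZ, and 2220 ± 48.0 and 1830 ± 203 in the DZ (SD, n = 4). Other edgeR settings did give licensing calls. With the replicate number as a block, Mcm5 passed in the LZ (edgeR adjusted p = 0.0377) and DZ (0.0419), and Mcm4 in the DZ (0.0482). Without isotype LZ library 4, Mcm5 passed in the LZ (0.0308). Upper quartile factors called Mcm5 and Mcm7 in the LZ. Without the libraries numbered 4, Mcm4 passed in the DZ. Mcm5, a subunit of the MCM helicase (chr8:75109569-75128439, plus strand), fell in the average over zones, by 0.39 on the log2 scale (SE 0.11, edgeR adjusted p = 0.0169). Its level was 329, 398, 388 and 249 CPM in isotype LZ, 249, 287, 287 and 234 in anti-CD40 LZ, 410, 388, 413 and 322 in isotype DZ, and 277, 318, 273 and 279 in anti-CD40 DZ. The DZ groups did not overlap, and in the LZ isotype library 4 sat as low as the treated libraries. With all 16 libraries, TMM factors and no block, the other MCM subunits did not pass. In the LZ their log2 fold changes ran from -0.33 for Mcm7 (SE 0.16, edgeR adjusted p = 0.158) to 0.07 for Mcm2 (SE 0.18, 0.851). Cdc6, which brings MCM to origins, was too low to test, with 18 UMI over the 4 isotype LZ libraries, 7 over anti-CD40 LZ, 34 over isotype DZ and 15 over anti-CD40 DZ.

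Among origin firing factors, Cdc45 fell in the LZ and Gins2 in the DZ, 1 of 8 tested members in each zone. Both proteins join MCM to form the active helicase. Cdc45 (chr16:18780447-18811987, minus strand) was at 90.0, 79.6, 85.8 and 84.7 CPM in isotype LZ and 52.9, 36.3, 53.0 and 50.7 in anti-CD40 LZ. These groups did not overlap, and the fold change was -0.81 on the log2 scale (SE 0.21, edgeR adjusted p = 0.00905). DZ libraries held 69.2, 86.1, 77.1 and 101 against 54.7, 44.3, 62.7 and 73.7, which overlapped (-0.52, SE 0.20, adjusted p = 0.248).

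Gins2 (chr8:120578633-120589304, minus strand) was at 111, 115, 84.1 and 112 CPM in isotype DZ and 78.9, 59.2, 51.5 and 69.6 in anti-CD40 DZ. The groups did not overlap, and the fall was 0.70 on the log2 scale (SE 0.18, edgeR adjusted p = 0.0486). This call was close to the threshold: it held without isotype LZ library 4, isotype DZ library 3 or anti-CD40 DZ library 1, while leaving out any one of the other 13 libraries gave an adjusted p of 0.0528 to 0.249. In the LZ, Gins2 was at 117, 95.5, 106 and 118 against 99.4, 91.5, 71.0 and 77.6 CPM, with overlap (-0.37, SE 0.19, adjusted p = 0.188). Gse1, on the other strand, covers the 3′ end of Gins2 in GENCODE vM21; whether counting used strand is not given in the sources used here, and its own DZ change was 0.00 (SE 0.27, adjusted p = 0.999). The kinase Cdc7 and its activator Dbf4 did not pass in either zone (LZ -0.26, SE 0.53, and 0.50, SE 0.36).

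Of the polymerase genes, Pold2 rose in the LZ, 1 of 8 tested, and none passed in the DZ, where 0 had an unadjusted p under 0.05. Pold2 is the small regulatory subunit of polymerase delta (chr11:5872180-5878292, minus strand). It was at 64.5, 65.2, 82.0 and 81.1 CPM in isotype LZ and 106, 159, 101 and 155 in anti-CD40 LZ. Every treated library lay above every control library, and the fold change was 0.83 on the log2 scale (SE 0.21, edgeR adjusted p = 0.00957). Without anti-CD40 LZ library 2 it did not pass (0.69, adjusted p = 0.0564). The DZ groups overlapped, at 61.6, 67.9, 76.1 and 72.9 against 49.2, 50.8, 75.6 and 77.8 CPM (-0.17, SE 0.21, adjusted p = 0.913).

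The catalytic subunit of the same polymerase, Pold1, did not pass, with a log2 fold change of -0.41 in the LZ (SE 0.20, edgeR adjusted p = 0.167) and -0.26 in the DZ (SE 0.19, 0.766). With the replicate number as a block, Pold1 passed in the LZ (edgeR adjusted p = 0.0435). Summed, the 8 polymerase and primase genes were at 651 ± 38.2 CPM in isotype and 607 ± 90.4 in anti-CD40 LZ (SD, n = 4), with overlapping libraries, and at 722 ± 52.9 and 599 ± 43.0 in the DZ, where they did not overlap. Pola1, the catalytic subunit of the priming polymerase, was among the genes in which the libraries numbered 4 stood apart, at a log2 difference of -2.0 (edgeR adjusted p = 1.30e-05). It was at 15.9, 6.33, 11.3 and 10.2 CPM in those 4 libraries and at 20.8 to 60.1 in the other 12.

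With all 16 libraries, TMM factors and no block, the clamp loader was the role with the highest share of calls in the LZ. There 4 of the 6 tested clamp and loader genes fell (66.7%, against 8.24% of all genes), namely Rfc1, Rfc2, Rfc3 and Rfc5. The rank was not stable. DESeq2 added Rrm1 to the calls in nucleotide supply. Without the libraries numbered 4, Rfc3 and Rfc5 did not pass and Rrm1 did. RFC has a large subunit, Rfc1, which gives the complex its clamp-loading identity, and small subunits shared with related loaders. The small subunit Rfc4 did not pass in either zone, and its libraries overlapped in both. It was at 63.6 ± 28.9 CPM in isotype LZ and 68.7 ± 24.4 in anti-CD40 LZ (SD, n = 4). In the DZ it was at 61.7 ± 34.5 and 46.9 ± 23.1. Rfc1 (chr5:65261850-65335670, minus strand), whose promoter is printed above, was at 181, 161, 229 and 222 CPM in isotype LZ and 68.9, 71.0, 87.9 and 57.0 in anti-CD40 LZ. The groups were far apart, and the fold change was -1.47 on the log2 scale (SE 0.21, 95% interval -1.91 to -1.02, edgeR adjusted p = 9.02e-05), which had the greatest size among members. Behind these values stood 36 to 135 UMI per library. In the DZ, Rfc1 was at 181, 201, 199 and 275 against 129, 131, 199 and 201 CPM, and the groups overlapped (-0.39, SE 0.20, adjusted p = 0.514).

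Rfc2 (chr5:134581366-134601805, plus strand) was at 361, 406, 384 and 450 CPM in isotype LZ and 281, 197, 203 and 255 in anti-CD40 LZ. In the DZ it was at 356, 326, 358 and 405 against 285, 268, 270 and 281. Treated libraries lay below controls in both zones, but only the LZ change passed (-0.78, SE 0.14, edgeR adjusted p = 9.94e-04; DZ -0.39, SE 0.14, 0.232). The 3′ end of Rfc2 is covered on the other strand by Lat2, which changed by -0.68 in the LZ (SE 0.34, adjusted p = 0.177).

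Rfc3 (chr5:151642756-151651242, minus strand) was at 184, 158, 203 and 210 CPM in isotype LZ and 151, 142, 103 and 122 in anti-CD40 LZ. It fell by 0.55 on the log2 scale (SE 0.17, edgeR adjusted p = 0.0292). Rfc5 (chr5:117378103-117389047, minus strand) was at 136, 92.3, 104 and 118 against 73.8, 74.1, 84.5 and 63.3 CPM, and fell by 0.61 (SE 0.18, adjusted p = 0.0256). Neither gene's LZ groups overlapped, yet both calls were fragile. Rfc3 did not pass without isotype LZ library 3 (adjusted p = 0.0573) or 4 (0.0711), or anti-CD40 LZ library 3 (0.0967) or 4 (0.0744). Rfc5 did not pass without isotype LZ library 1 (0.0712) or 4 (0.0518), or anti-CD40 LZ library 2 (0.0527) or 4 (0.0784). In the DZ Rfc3 was at 212, 225, 173 and 225 against 181, 137, 183 and 154 CPM, and Rfc5 at 106, 102, 100 and 88.0 against 70.3, 57.3, 88.5 and 71.7. Both pairs of DZ groups overlapped, with changes in the DZ of -0.35 (SE 0.16, adjusted p = 0.443) and -0.48 (SE 0.18, 0.247). Wsb2 covers the 3′ end of Rfc5 on the other strand and changed by -0.22 in the LZ (SE 0.30, adjusted p = 0.685).

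Pcna, the clamp itself, gave no call; it is described because its values are split by library, and was chosen after its values were seen. It was at 328, 377, 350 and 49.4 CPM in isotype LZ, 364, 281, 372 and 120 in anti-CD40 LZ, 390, 402, 434 and 72.9 in isotype DZ, and 401, 238, 101 and 77.8 in anti-CD40 DZ. The libraries numbered 4 were the lowest of each group, at a log2 difference of -2.08 (edgeR adjusted p = 6.09e-05), and anti-CD40 DZ library 3 was also low. With this spread the LZ change was 0.04 with a 95% interval of -1.14 to 1.22 on the log2 scale, which leaves both a rise and a fall possible. The annotation also lists the pseudogenes Pcna-ps1 and Pcna-ps2, to which reads of Pcna could be assigned.

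**Figure D4:**
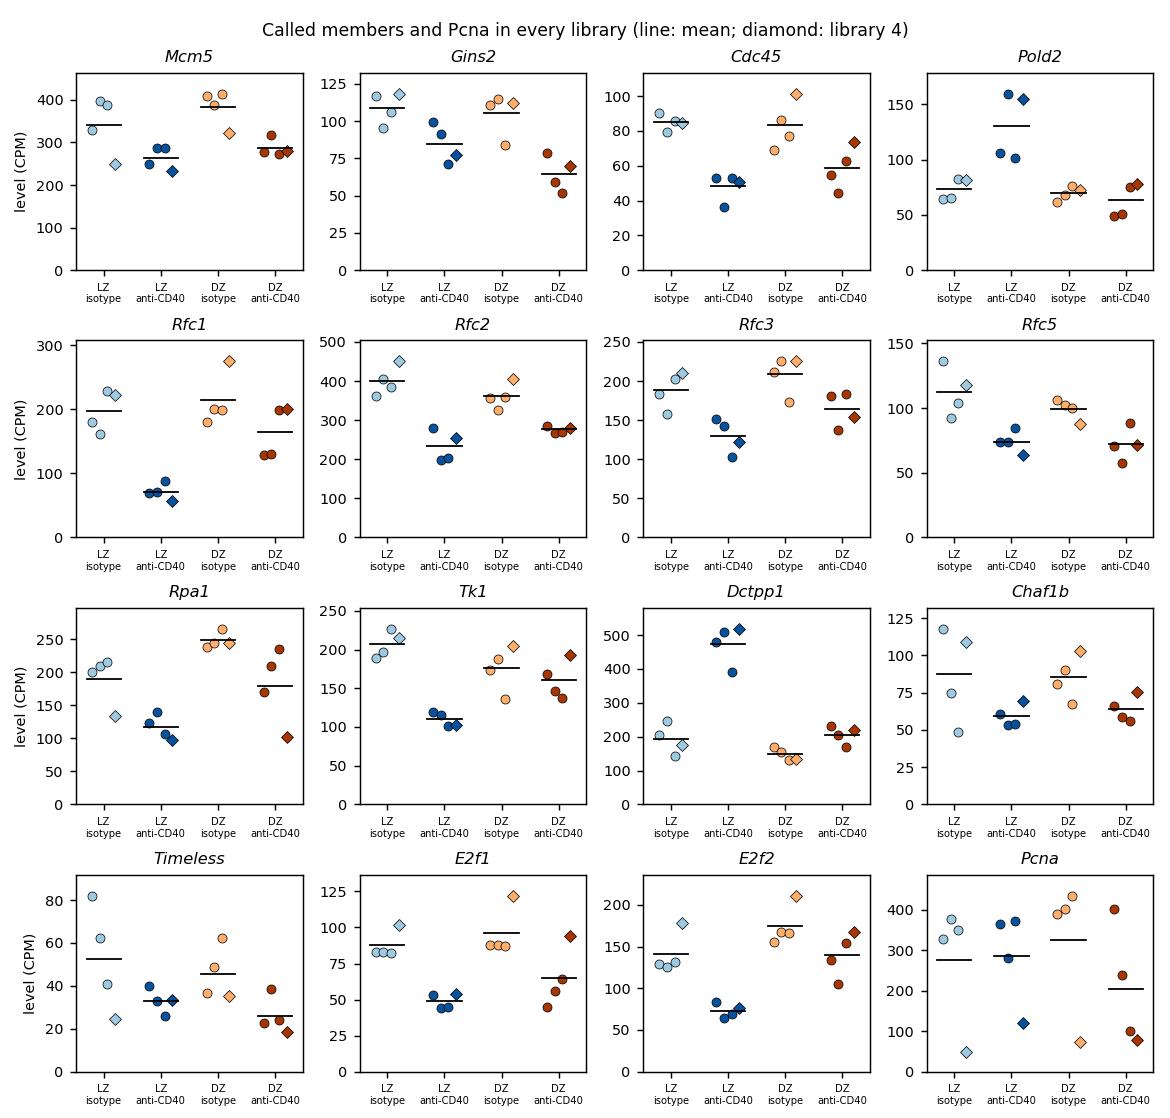
Level (CPM, y axis from 0) of the 15 called members and of Pcna in each library of the 4 groups (x axis); lines are group means and diamonds the libraries numbered 4. Rfc1, Tk1, E2f2, Dctpp1 and Pold2 separate anti-CD40 LZ from the other 3 groups, and Pcna is lowest in the library numbered 4 of every group.

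Of the single-strand binding and lagging strand genes, Rpa1 fell in the LZ, 1 of 5 tested, and none passed in the DZ, where 1 had an unadjusted p under 0.05. Rpa1 is the large subunit of replication protein A, which coats unwound DNA (chr11:75298166-75348324, minus strand). It was at 200, 210, 216 and 134 CPM in isotype LZ and 123, 140, 106 and 98.1 in anti-CD40 LZ. Isotype library 4 fell within the treated range, and the fold change was -0.70 on the log2 scale (SE 0.22, edgeR adjusted p = 0.0290). It did not pass without isotype LZ library 2 (adjusted p = 0.0714) or 3 (0.0584), or anti-CD40 LZ library 3 (0.0737) or 4 (0.0862). The DZ values were 238, 245, 266 and 244 against 170, 210, 235 and 102 CPM, without overlap (-0.46, SE 0.21, edgeR adjusted p = 0.410). With the replicate number as a block, Rpa1 passed in the DZ (edgeR adjusted p = 0.0492). The partner subunits Rpa2 and Rpa3, the flap nuclease Fen1 and the ligase Lig1 did not pass in either zone without the block. With it, Lig1 passed in the LZ (edgeR adjusted p = 0.012).

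Nucleotide supply held the only member that rose in the average over zones, and a member that fell. Dctpp1 is a pyrophosphatase that removes surplus and modified deoxycytidine triphosphate (chr7:127256959-127260709, minus strand). It was at 204, 247, 142 and 176 CPM in isotype LZ and 479, 508, 391 and 519 in anti-CD40 LZ, 192 ± 44.4 against 474 ± 58.0 (SD, n = 4). The groups were well apart, at a log2 fold change of 1.30 (SE 0.18, edgeR adjusted p = 5.13e-05). DZ libraries held 171, 155, 130 and 135 against 231, 204, 169 and 221 CPM, which overlapped by 1 library on each side (0.48, SE 0.18, edgeR adjusted p = 0.227). With the replicate number as a block, Dctpp1 passed in the DZ (edgeR adjusted p = 0.032).

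Tk1, the cytosolic thymidine kinase of S phase cells (chr11:117815526-117826092, minus strand), went the other way in the LZ. It was at 189, 197, 227 and 215 CPM in isotype LZ and 120, 115, 101 and 103 in anti-CD40 LZ. No library overlapped, and the fall was 0.91 on the log2 scale (SE 0.17, edgeR adjusted p = 7.41e-04). In the DZ it was at 174, 188, 136 and 205 against 168, 146, 138 and 193 CPM, nearly the same range (-0.13, SE 0.16, adjusted p = 0.911). Gm20708 covers its 3′ end on the other strand and was not in the count table. The ribonucleotide reductase subunits Rrm1 and Rrm2 did not pass with all libraries, TMM factors and no block. In the LZ, Rrm1 passed in DESeq2, with upper quartile factors, without the libraries numbered 4 and with the replicate number as a block (edgeR adjusted p = 0.0479). Rrm2 passed there with the block (0.0469). Both passed in the average over zones in DESeq2. Thymidylate synthase (Tyms) and the dUTPase Dut were too low to test, with 9 to 33 UMI per group.

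With all libraries, TMM factors and no block, Chaf1b and Timeless passed in the average over zones alone. In the LZ, Chaf1b passed with the replicate number as a block (edgeR adjusted p = 0.0367) and Timeless without the libraries numbered 4 (0.0346). Chaf1b is a subunit of chromatin assembly factor 1, which deposits histones behind the fork (chr16:93883901-93906115, plus strand), and Timeless with Tipin stabilises stalled forks (chr10:128232065-128252941, plus strand). Chaf1b fell by 0.49 on the log2 scale (SE 0.17, edgeR adjusted p = 0.0463), from 118, 74.8, 48.5 and 109 to 60.9, 53.6, 54.1 and 69.7 CPM in the LZ and from 81.0, 90.2, 67.1 and 103 to 66.4, 58.6, 56.3 and 75.8 in the DZ. Both pairs overlapped, and the call was lost when any one of 11 libraries was left out, at an adjusted p of 0.0638 to 0.107; it held without isotype LZ library 2 or 3, anti-CD40 LZ library 4, isotype DZ library 3 or anti-CD40 DZ library 4. Timeless fell by 0.73 (SE 0.23, adjusted p = 0.0315), from 82.0, 62.1, 41.0 and 24.7 to 40.1, 33.1, 25.9 and 33.2 CPM in the LZ and from 36.7, 48.6, 62.1 and 35.2 to 22.7, 38.4, 24.1 and 18.4 in the DZ. These pairs overlapped as well. Timeless did not pass without isotype LZ library 1 (adjusted p = 0.0744) or 2 (0.0606), anti-CD40 LZ library 3 (0.0636) or 4 (0.0505), or isotype DZ library 2 (0.0549) or 3 (0.0633).

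In the E2F and cyclin E group, the activators E2f1 and E2f2 fell in the LZ, 2 of 6 tested, and none passed in the DZ, where 2 had an unadjusted p under 0.05. E2f1 (chr2:154559407-154569892, minus strand) was at 83.3, 82.8, 82.0 and 102 CPM in isotype LZ and 52.9, 44.2, 45.1 and 53.8 in anti-CD40 LZ. No library overlapped, at a log2 fold change of -0.84 (SE 0.22, edgeR adjusted p = 0.0125). In the DZ it was at 87.9, 88.1, 87.1 and 122 against 44.6, 56.0, 64.3 and 94.2 CPM, where treated library 4 lay among the controls (-0.61, SE 0.21, edgeR adjusted p = 0.196). With the replicate number as a block, E2f1 passed in the DZ (edgeR adjusted p = 0.0219).

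E2f2 (chr4:136172394-136196057, plus strand) was at 129, 126, 132 and 178 CPM in isotype LZ and 83.4, 64.7, 68.8 and 76.0 in anti-CD40 LZ. All treated libraries lay below all controls (-0.95, SE 0.19, edgeR adjusted p = 0.00163). In the DZ it was at 156, 168, 166 and 211 against 134, 105, 154 and 168 CPM, with overlap (-0.33, SE 0.18, adjusted p = 0.542). The summed level of the group, which also holds E2f3, Ccne1, Ccne2, Cdk2 and the Cdk2-activating phosphatase Cdc25a, was 363 to 504 CPM in isotype LZ and 265 to 274 in anti-CD40 LZ. The treated LZ libraries differed from each other by less than the spread of any other group, and in the DZ the sums overlapped, at 393 to 561 against 297 to 424. Cyclin E2 (Ccne2) was too low to test, with 14 to 30 UMI per group.

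Whether the response differed between zones was tested as an interaction. None of 55 members passed (1 of 6824 genes did, 0.0147%), and 0 were past the adjusted threshold in DESeq2. At an unadjusted p under 0.05 in edgeR there were 6 of 55 members, beside 8.59% of all genes. The greatest differences, LZ change minus DZ change on the log2 scale, were -1.08 for Rfc1 (SE 0.29, 95% interval -1.68 to -0.48, edgeR adjusted p = 0.242), 1.0 for Pold2 (SE 0.30, adjusted p = 0.303), 0.82 for Dctpp1 (SE 0.25, 0.303) and -0.78 for Tk1 (SE 0.23, 0.303). The intervals of these 4 did not include 0 before adjustment, but in this fit the adjusted tests did not separate the zones, so that it does not show the calls in the LZ and their lack in the DZ to differ. Without the libraries numbered 4 again no member passed, with an edgeR adjusted p of 0.29 for Rfc1, 0.336 for Pold2, 0.441 for Dctpp1 and 0.368 for Tk1. With the replicate number as a block, however, Rfc1 (edgeR adjusted p = 0.0179), Dctpp1 (0.0222) and Pold2 (0.0427) passed, with Tk1 at 0.05. The labels do not say what the numbers share, so that the outcome depends on a choice they do not settle.

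Between zones under isotype, no member passed in either direction (1.29% of all genes were higher in LZ and 0.938% lower), with 0 calls in DESeq2. At an unadjusted p under 0.05 in edgeR there were 2 of 55 members, Orc2 and Dctpp1, beside 12% of all genes. The median LZ minus DZ difference was -0.06 on the log2 scale, against 0.02 over all genes. The G2/M genes differed more in count: 3 of 16 tested were lower in LZ, among them Ccnb2, the mitotic cyclin B2, at 122 ± 9.76 against 270 ± 23.8 CPM (SD, n = 4; -1.15, SE 0.19, edgeR adjusted p = 0.00221), Ube2c (-0.74, SE 0.16, 0.0136) and Cdc20 (-0.85, SE 0.22, 0.0477). Whether the 2 sets differ from each other was not tested.

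After anti-CD40, 5 members differed between zones. Dctpp1 (1.20, SE 0.17, edgeR adjusted p = 2.07e-04) and Pold2 (1.07, SE 0.21, 0.00241) were higher in LZ (3.64%, against 6.14% of all genes). Rfc1 (-1.19, SE 0.21, adjusted p = 0.00105), E2f2 (-0.93, SE 0.19, 0.00277) and Tk1 (-0.55, SE 0.16, 0.0348) were lower in LZ (5.45%, against 5.38% of all genes). This comparison shares the anti-CD40 LZ libraries with the LZ response and is not independent of it. Tk1 did not pass without anti-CD40 LZ library 2 (adjusted p = 0.0622), 3 (0.0887) or 4 (0.087), or anti-CD40 DZ library 1 (0.0671) or 4 (0.0806), nor without all 4 libraries numbered 4 (0.102).

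**Figure D5:**
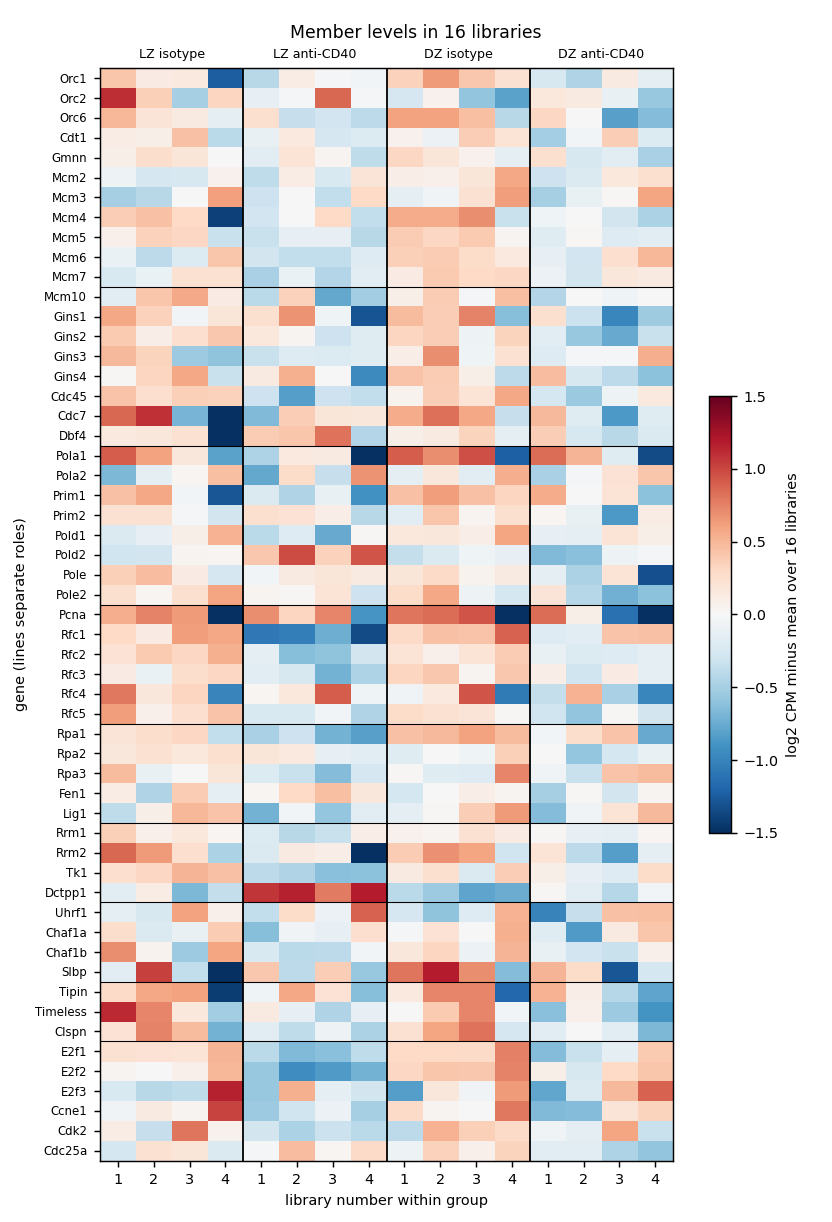
Log2 CPM of the 55 tested members (y axis, by role) in 16 libraries (x axis, by group and library number), each shown as the difference from the gene's mean over the 16 libraries (prior count 2; colour scale -1.5 to 1.5). Anti-CD40 LZ stands out in Rfc1 and E2f2 (blue) and Dctpp1 and Pold2 (red), and the libraries numbered 4 in Pcna, Pola1 and Tipin.

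The other genes of these pathways were taken from fixed lists. Of 24 further tested replication genes, 1 passed in the LZ and 0 in the DZ (2 at an unadjusted p under 0.05): Pole3, a histone-fold subunit of polymerase epsilon, rose from 57.1 ± 8.61 to 87.1 ± 12.7 CPM (SD, n = 4; 0.60, SE 0.18, edgeR adjusted p = 0.0253). Of 8 further chromatin assembly genes none passed in either zone in edgeR, with 0 at an unadjusted p under 0.05 in the LZ and 1 in the DZ. Of 16 further G1/S control genes 1 passed in the LZ and 0 in the DZ (2 at an unadjusted p under 0.05): Rbl2, the retinoblastoma relative p130 that holds E2F targets silent in resting cells, fell from 25.8 ± 7.34 to 10.7 ± 4.69 CPM (-1.22, SE 0.36, adjusted p = 0.0217).

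Further nucleotide genes went both ways in the LZ, 3 higher and 2 lower of 10 tested, with none passing in the DZ (4 at an unadjusted p under 0.05). Shmt1, which feeds one-carbon units to thymidylate, rose from 22.7 ± 8.20 to 82.5 ± 10.9 CPM (SD, n = 4; log2 1.84, SE 0.28, edgeR adjusted p = 1.44e-04), and Nme1, a nucleoside diphosphate kinase, rose from 685 ± 91.5 to 1270 ± 258 (0.89, SE 0.15, 5.17e-04). Samhd1, which breaks down deoxynucleotides, fell from 404 ± 162 to 160 ± 5.90 (-1.33, SE 0.26, adjusted p = 0.00141), and Tk2, the mitochondrial thymidine kinase, from 43.5 ± 8.76 to 17.2 ± 5.53 (-1.31, SE 0.28, 0.00321). Of 16 G2/M genes 5 fell in the LZ and 0 in the DZ, where 0 had an unadjusted p under 0.05; among them the kinetochore motor Cenpe fell by 1.34 on the log2 scale, from 68.2 ± 20 to 26.7 ± 7.67 CPM (SE 0.27, adjusted p = 0.00210), and Ccnb2 from 122 ± 9.76 to 78.4 ± 19.3 (-0.63, SE 0.20, 0.0356).

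In the authors' deposited table of comparisons, from DESeq2, 2 members were higher and 9 lower in the LZ, 0 and 1 in the DZ, 0 and 0 between zones under isotype, and 2 and 4 between zones after anti-CD40. In that deposited table all 11, 1 and 5 members called by edgeR were called in the same direction, and Rpa1 was called as well after anti-CD40.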

How the data were processed

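Bulk RNA of 16 libraries, 4 per group, had been made into 3′ libraries with a barcode per sample and a UMI per transcript, per the labels' protocols. Per the submitters' processing notes, cutadapt, STAR, HTSeq and DESeq2 were used with mm10; their versions, and whether counting used strand, are not given in the sources used here. The deposited table holds raw UMI counts per gene, which were used for all tests. The authors also deposited a log2 fold change and p-values from DESeq2 for 4 comparisons, used only to count shared calls, and a normalised signal, which was deposited beside the counts and not used.

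Members and gene lists were chosen with earlier results of these data known. With R 4.3.3 and edgeR 4.0.16, filterByExpr (minimum count 10) left 6824 genes holding 98.6% of UMI; TMM factors and a robust quasi-likelihood fit of 4 group means to all 16 libraries gave 6 contrasts. Calls needed a Benjamini-Hochberg adjusted p under 0.05 over all tested genes. A standard error is the fold change divided by the root of F, or a Wald error for changes under 0.01. Genes were named if they passed in at least 1 contrast; of other lists, up to 4 with the smallest adjusted p. Alternatives included DESeq2 1.42.0, other factors and filters, the replicate number as a block and libraries left out. The fit was tested on simulated counts. Those libraries were drawn independently, so that the test does not cover an effect shared by libraries of the same number. Positions came from GENCODE vM21 (GRCm38, the same assembly as mm10) and promoters from RefSeq (GRCm38.p6), read with Python 3.11.15. Counting error and the number of libraries limit the precision.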

Additional observations from a re-analysis of the deposited data

Results flagged for a closer look

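Among 100 sets of 4 libraries (15 named members and 10 sums in 4 groups), 10 held a library far from the other 3. In independent sets chance gives about 1 in 20. These sets share libraries, and the sums include the named members, so that the 10 cannot be set against that rate. E2f1 was at 102 CPM in isotype LZ library 4, against 82.0 to 83.3 in the others, and at 122 in isotype DZ library 4, against 87.1 to 88.1. E2f2 was at 178 CPM in isotype LZ library 4, against 126 to 132, and the summed chromatin and histone supply genes at 407 in isotype DZ library 4, against 280 to 296. The single-strand binding and lagging strand genes summed to 835 CPM in isotype LZ library 3, against 691 to 707, and to 653 in anti-CD40 LZ library 2, against 548 to 562. Cdc45 was low in anti-CD40 LZ library 2, at 36.3 CPM against 50.7 to 53.0, and Gins2 in isotype DZ library 3, at 84.1 against 111 to 115. Mcm5 was high in anti-CD40 DZ library 2, at 318 CPM against 273 to 279. The sum of all 59 members was low in isotype DZ library 1, at 6690 CPM against 7020 to 7060. Of the 10, 4 were in libraries numbered 4, all of them high and all under isotype; a cause was not tested.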

How the results depend on the processing

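Of 90 fold changes (15 named members in 6 comparisons), 9 reversed their sign under at least 1 alternative; none of the 9 passed the test, and none of the 45 that compare anti-CD40 with isotype was among them. With a library left out, 9 ranged across 0: the interaction from -0.07 to 0.13 for Mcm5 and -0.17 to 0.33 for Timeless, the LZ minus DZ difference after anti-CD40 from -0.1 to 0.13 for Rfc5, and that under isotype from -0.05 to 0.11 for Gins2, -0.05 to 0.15 for Cdc45, -0.18 to 0.05 for Rfc1, -0.12 to 0.25 for Chaf1b, -0.08 to 0.45 for Timeless and -0.22 to 0.02 for E2f1. Upper quartile factors gave -0.01 (Mcm5) and 0.00 (Timeless) for the interaction and -0.02 for Rfc5, and leaving out the libraries numbered 4 gave -0.24 for Timeless in the interaction; the cause was not tested. Leaving out each library in turn gave 9 to 12 called members in the LZ, 0 to 1 in the DZ, 12 to 17 in the average over zones, 0 to 0 in the interaction and between zones under isotype, and 4 to 6 between zones after anti-CD40. In the DZ the only call was lost with no filter on low counts (0 members; Gins2 adjusted p = 0.0935) and with only the groups compared in the fit (0 members; 0.126); the cause was not tested. Upper quartile factors moved the median of all genes in the LZ from 0.01 to -0.10 on the log2 scale and that of the members to -0.40, with 14 calls in the LZ and 21 in the average.

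With the replicate number as a block, 18 members passed in the LZ, 6 in the DZ, 25 in the average and 3 in the interaction (edgeR adjusted p = 0.0179 for Rfc1, 0.0222 for Dctpp1 and 0.0427 for Pold2, with Tk1 at 0.05), and 0 and 6 between zones under isotype and after anti-CD40. The labels do not say what the numbers share, and they were not taken as a pairing because not every same-numbered pair was over 0.1. The counts in the DZ and in the interaction differ with this choice. Correlations of deviations in same-numbered pairs were -0.21 to 0.66, and those of libraries numbered 4 were 0.49 to 0.66 between all groups. Of 4 pairs, 2 were over 0.1 between the LZ groups, 3 between the DZ groups, 3 between zones under isotype and 3 after anti-CD40, and 3 and 4 in the groups that differ in both. The best correlate carried the same number in 28 of 48 searches, and in every other group for 6 of 16 libraries, which is a hint from the data that the numbers share something. Depth limits Cdc6, Tyms, Dut and Ccne2, which could not be tested.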
